A study of Arabidopsis thaliana with 30 samples.

Results

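The seedlings studied here were Arabidopsis kept in air from the end of the light period, and the measurement was the mRNA bound to their ribosomes after 9 h against 2 h. The members were picked out by their labels, with earlier results of these data known. They were 3 arrays of polysomal RNA from 9 h of air and 3 from 2 h of air, 6 of the series' 30 arrays. Each was compared after its own mean over the non-control probe sets had been subtracted. All seedlings were 7 days old, of the Col-0 background, and carried 1 copy of the 35S:His6FLAG-RPL18B transgene, in which a viral promoter active in most cell types drives a tagged protein of the large ribosomal subunit. Polysomes were pulled down from whole seedlings through that tag. The other groups used below, also with 3 arrays each, were total RNA after 9 h and after 2 h of air and polysomal RNA after 9 h and after 2 h of hypoxia. Treatments ran in dim light, so the 9 h and 2 h air seedlings differ in time since the day's light ended and in the clock time of harvest together, and these cannot be told apart. The labels speak of independent biological replicate experiments.

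Plants keep a circadian clock, a network of transcription factors that repress one another in turn, with some members peaking around dawn and others towards evening. The clock and the loss of light both shape the night-time transcriptome: starch stored in the chloroplast by day is broken down to sugars, growth-related genes are timed, and genes for photosynthesis are prepared for the morning. Polysomal RNA is the part of the mRNA pool that carries several ribosomes, so its level follows both the amount of an mRNA and its loading with ribosomes.

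All levels below are log2 signals relative to the array's own mean, and all changes are 9 h minus 2 h of air in log2 units, so a change of 1 is a doubling. The array means before this subtraction were 5.358 ± 0.009 at 9 h and 5.364 ± 0.008 at 2 h in polysomal RNA (SD, n = 3 each). Differences between arrays of 1 group had an SD over probe sets of 0.18 to 0.36 in the 30 within-group pairs of the series, and no pair was identical. Of 10 root markers and 10 shoot markers, 7 and 3 could be named on the array. Their summed level relative to the array mean, on the log2 scale, spanned 7.02 to 7.21 at 9 h and 6.78 to 7.12 at 2 h for the root markers, and 8.20 to 8.23 at 9 h and 8.18 to 8.26 at 2 h for the shoot markers. None of the 7 root markers passed the test, and of the shoot markers SBPASE did. In RNA of whole seedlings, fewer cells of a type and less RNA per cell cannot be told apart.

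In polysomal RNA, 910 probe sets rose and 968 fell at 9 h against 2 h of air, of 22746 tested (limma, adjusted p under 0.05), which is 8.26% of all, with 4% higher and 4.26% lower. At least 2-fold changes were called for 199 rises (0.875%) and 159 falls (0.699%), or 1.57% of all probe sets. The median change over all probe sets was -0.002. The counts changed when arrays were left out: without any 1 of the 6 arrays there were 660 to 778 rises and 726 to 796 falls. Leaving out all arrays of a replicate number in the series, those of the other groups included, removed more of the fit. It gave 415 and 477 for replicate 3, 554 and 523 for replicate 2, and 744 and 713 for replicate 1. Over the 13355 genes that could be named, 454 rose (3.4%) and 470 fell (3.52%), 6.92% in all, and these are the shares against which the gene groups below are read. The 12 probe sets with the largest rises, up to 6.11, and 6 of the 12 with the largest falls have no single gene in the probe table used here and are not named, so the genes below are the largest changes among named genes only.

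**Figure D1:**
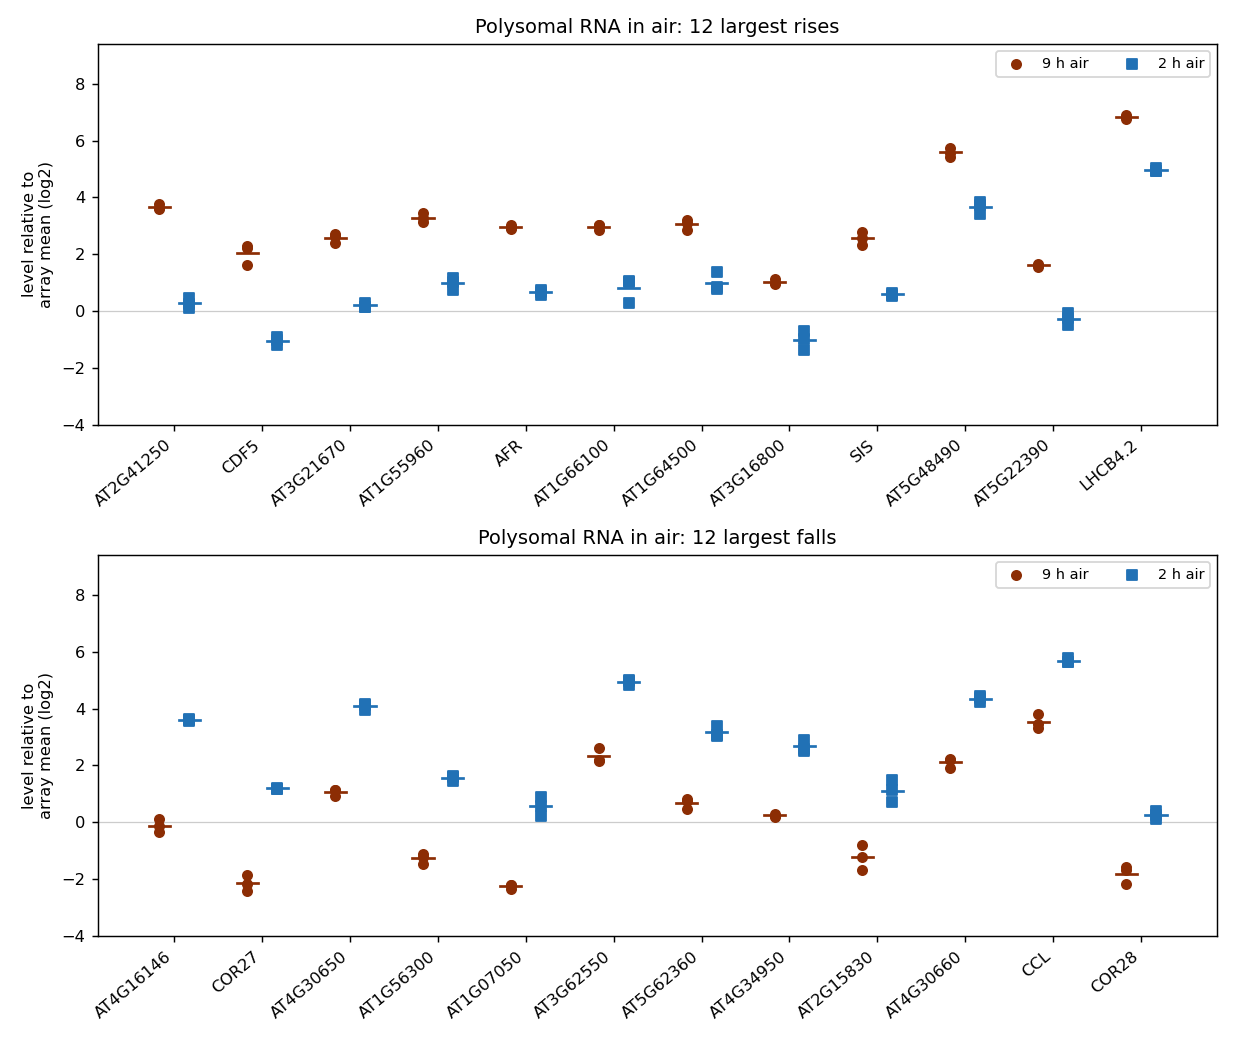
Level of the 12 named genes with the largest rises (top) and the 12 with the largest falls (bottom) on each polysomal array, relative to the array mean on the log2 scale. Circles are the 3 arrays of 9 h air, squares the 3 of 2 h air, and bars their means; in each gene the 2 sets of points lie apart, as the choice of these genes required, and levels are not comparable between genes.

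The clock-controlled genes held some of the largest changes. COR27 and AT4G33980, known as COR28, are a pair of small night-time repressors under clock control that are also induced by cold. COR27 stood at -2.17, -2.42 and -1.86 in the 9 h air arrays, against 1.22, 1.18 and 1.18 in the 2 h air arrays. It fell by 3.34 ± 0.17 (SE, adjusted p = 1.04e-13, limma), a 10.1-fold lower level at 9 h, with the 2 h arrays nearly equal and the 9 h arrays far below them. COR28 stood at -1.67, -1.57 and -2.19 at 9 h and 0.41, 0.11 and 0.26 at 2 h, and fell by 2.07 ± 0.23 (adjusted p = 4.32e-07, limma). Both COR27 and COR28 were dim at 9 h, so a part of each fall could be too small to measure. CCL, a gene with an unstable mRNA under clock control, was a strong signal at both times. Its level was 3.31, 3.47 and 3.80 at 9 h and 5.80, 5.62 and 5.63 at 2 h, a fall of 2.16 ± 0.14 (adjusted p = 1.11e-11, limma).

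AT1G69570, known as CDF5, ran the other way. CDF5 belongs to the cycling DOF factors, transcription factors that repress flowering genes and peak around dawn. Its level was 2.30, 1.62 and 2.20 at 9 h and -1.03, -1.19 and -0.92 at 2 h, a rise of 3.09 ± 0.20 (adjusted p = 9.4e-12, limma), or 8.51-fold. Thus, of 18 listed clock outputs, 4 could be named, of which 1 rose and 3 fell. Their median was -2.12 beside -0.002 over all named genes, and those 4 calls were kept in each of the 16 alternative settings run. Of the clock's own genes 2 could be named. GIGANTEA (GI), an evening-phased protein that stabilises another clock component, was dim, at -1.65, -1.49 and -1.63 at 9 h and -2.03, -1.87 and -1.93 at 2 h. All 9 h arrays lay above all 2 h arrays, as for 11.2% of all probe sets, but the difference of 0.35 ± 0.12 missed the threshold (adjusted p = 0.0877, limma). The difference passed under the replicate block, a fit to the arrays of the groups compared only, with the replicate number as a term (adjusted p = 0.0487, limma). RVE6, an activator of evening genes related to the dawn-phased MYB factors, is AT5G52660. It stood at 1.04, 0.07 and 0.67 at 9 h and 0.24, 0.55 and 0.65 at 2 h, overlapping groups with a difference of 0.11 ± 0.22 (adjusted p = 0.887, limma) whose sign changed when 9 h replicate 1 (-0.11) or 2 h replicate 1 (-0.01) was left out.

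**Figure D2:**
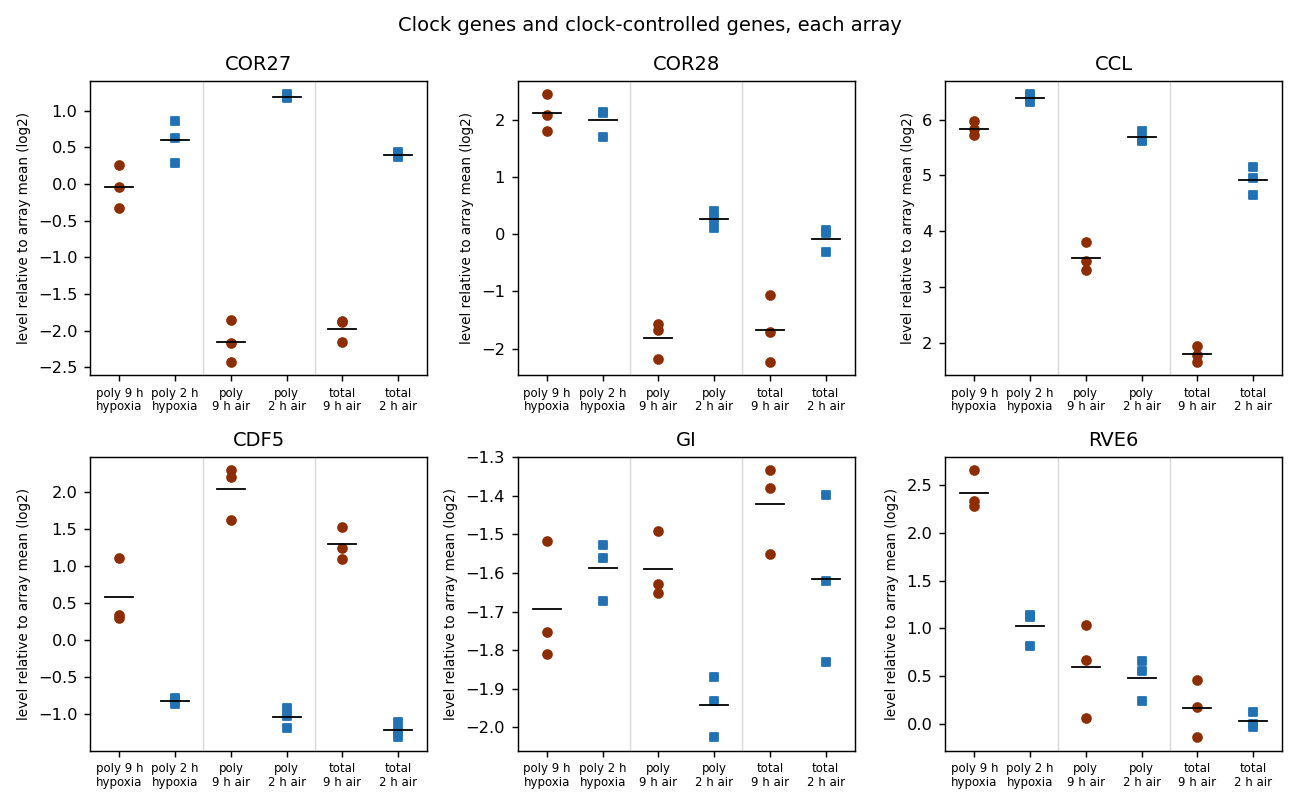
Level of COR27, COR28, CCL, CDF5, GI and RVE6 on each array, relative to the array mean on the log2 scale, in polysomal RNA under hypoxia and in polysomal and total RNA in air, from left to right (circles 9 h, squares 2 h, bars means, n = 3). COR27 lies between -2.42 and -1.86 in polysomal RNA at 9 h of air and between 1.18 and 1.22 at 2 h of air, and the gap between the times is smaller under hypoxia.

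Among the other large rises, the largest was AT2G41250, a haloacid dehalogenase-like hydrolase, at 3.76, 3.58 and 3.64 at 9 h and 0.12, 0.46 and 0.24 at 2 h. It rose by 3.38 ± 0.15 (adjusted p = 9.91e-15, limma), 10.4-fold, with little spread in either group. AT3G21670, annotated as NPF6.4, is a member of the nitrate and peptide transporter family, with levels of 2.71, 2.41 and 2.63 at 9 h and 0.28, 0.15 and 0.16 at 2 h. It rose by 2.39 ± 0.18 (adjusted p = 3.59e-10, limma). AFR, an F-box protein of far-red light signalling through phytochrome A, stood at 3.02, 2.90 and 2.91 at 9 h and 0.58, 0.66 and 0.73 at 2 h. The rise of AFR was 2.29 ± 0.19 (adjusted p = 1.58e-09, limma).

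The rest of the 12 largest rises lay between 1.87 and 2.31. AT1G55960, a lipid-binding START-domain protein, rose by 2.31, AT1G66100, a thionin, by 2.17 and AT1G64500, a glutaredoxin, by 2.06. AT3G16800, a protein phosphatase of the PP2C class, rose by 2.04 with a wider spread at 2 h (0.95, 0.99 and 1.11 at 9 h, -1.37 to -0.69 at 2 h). SIS rose by 1.97, AT5G48490, a lipid transfer protein like DIR1, by 1.94 and AT5G22390 by 1.87. Adjusted p in these 7 genes was at most 8.52e-05 (limma), and each kept its call in every alternative setting.

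The largest fall of a named gene was that of AT4G16146, which encodes a small protein of the cAMP-regulated phosphoprotein 19 type. It stood at -0.33, 0.10 and -0.12 at 9 h and at 3.58, 3.64 and 3.60 at 2 h, and fell by 3.72 ± 0.16 (adjusted p = 5.67e-15, limma), or 13.2-fold. The 2 h arrays were nearly equal and all 9 h arrays were near the array mean. AT4G30650 and its neighbour by number AT4G30660 encode small membrane proteins of the RCI2 type, known from cold and salt responses. AT4G30650 stood at 1.14, 0.91 and 1.15 at 9 h and 4.11, 4.18 and 3.96 at 2 h, a fall of 3.02 ± 0.19, and AT4G30660 fell by 2.24 ± 0.14 (adjusted p = 6.65e-12 for both, limma). In the list of 8 RCI2-type genes, made after these values were seen, 5 could be named; both of these fell, and the other 3 lay between -0.12 and 0.36 and did not pass.

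AT1G07050, which encodes a protein with the CCT motif found in clock and flowering regulators, stood at -2.22, -2.35 and -2.21 at 9 h and 0.89, 0.23 and 0.56 at 2 h. It fell by 2.82 ± 0.15 (adjusted p = 3.25e-13, limma). AT1G56300, a DnaJ-type chaperone, changed sides of the array mean, with -1.47, -1.22 and -1.13 at 9 h and 1.58, 1.64 and 1.46 at 2 h, a fall of 2.84. AT3G62550, a universal stress protein, fell by 2.61, AT5G62360, an invertase or pectin methylesterase inhibitor, by 2.48, AT4G34950, a membrane transporter of the major facilitator class, by 2.43, and AT2G15830 by 2.35. In these 6 genes adjusted p was at most 3.34e-08 (limma). None of the 24 genes of largest change lost its call in any of the 16 alternatives, although AT1G07050 was among the dim probe sets that 1 of them left untested.

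The light-harvesting genes that could be named, 3 of the 21 listed, changed in both directions. LHCB4.1, LHCB4.2 and LHCB4.3 encode forms of CP29, a minor light-harvesting protein of photosystem II. LHCB4.2 stood at 6.77, 6.90 and 6.84 at 9 h and 4.94, 4.93 and 5.03 at 2 h, and rose by 1.87 ± 0.16 (adjusted p = 4.29e-09, limma). LHCB4.1 stood at 6.67, 6.85 and 6.89 at 9 h and 6.49, 6.27 and 6.47 at 2 h, a rise of 0.39 ± 0.11 (adjusted p = 0.0224) that missed the threshold when 2 h replicate 2, 9 h replicate 2 or 9 h replicate 3 was left out, with adjusted p up to 0.389 over the alternatives. LHCB4.3 fell, with 1.39, 1.49 and 1.42 at 9 h and 2.66, 2.43 and 2.29 at 2 h, a change of -1.02 ± 0.11 (adjusted p = 2.27e-07). So of the 3 named light-harvesting genes 2 rose and 1 fell, and the rest of the list cannot be read from them.

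Of 31 listed nuclear genes for photosystem and electron transport subunits 5 could be named. Of these PSAN, a lumenal subunit of photosystem I, passed, with a rise of 0.28 ± 0.07 (adjusted p = 0.012, and 0.132 with the replicate block, limma). PSAN also missed the threshold without 2 h replicate 2 or 9 h replicate 2, with adjusted p up to 0.431. PSBY (0.25), PSBW (0.21), PSAE-1 (0.20) and ATPC1 (-0.02) did not pass, and the median of the 5 was 0.21. In 4 of the 5 all 9 h polysomal arrays lay above all 2 h arrays, as for 11.2% of all probe sets. In total RNA 4 of the 5 were called higher at 9 h, with a median of 0.295, beside 322 of all 13355 named genes. In chlorophyll synthesis 6 of 21 listed genes could be named, of which 1 rose and 1 fell: AT1G74470, the geranylgeranyl reductase that makes the phytol tail, by 0.82 ± 0.14, and PORB, which reduces protochlorophyllide in the light, by -0.99 ± 0.12 (adjusted p = 0.000122 and 2.63e-06, limma). With the replicate block 2 of the 6 rose. PORB stood at 3.31, 3.20 and 3.26 at 9 h and 4.36, 4.13 and 4.24 at 2 h. HYH, a bZIP factor of light signalling related to HY5, was the 1 gene of its list of 19 that could be named. It rose by 1.77 ± 0.17, at 3.60, 3.47 and 3.42 at 9 h and 1.70, 1.79 and 1.67 at 2 h. Among 3 Calvin cycle genes SBPASE, a phosphatase that regenerates the carbon acceptor, passed with -0.28 ± 0.09 (adjusted p = 0.0457, and 0.118 with the replicate block), and it missed the threshold in 14 alternatives, among them those without 9 h replicates 1, 2 or 3 or 2 h replicates 2 or 3.

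Of the starch genes, 2 for breakdown and 3 for synthesis could be named. DPE1, the chloroplast enzyme that recycles short maltooligosaccharides during breakdown, stood at -0.24, -0.37 and -0.21 at 9 h and 0.72, 1.02 and 0.82 at 2 h. It fell by 1.13 ± 0.14 (adjusted p = 1.96e-06, limma). PWD, which phosphorylates the starch granule surface, stood at 0.42, 0.35 and 0.55 at 9 h and 1.35, 0.39 and 1.14 at 2 h. The 2 h value of replicate 2 lay within the 9 h range, and the difference of -0.52 ± 0.18 missed the threshold (adjusted p = 0.0757) but passed it without 2 h replicate 2 (adjusted p = 0.00151). The starch synthesis genes SBE2.2, a branching enzyme (0.22), and APL3 (-0.15) and APL4 (-0.02), large subunits of ADP-glucose pyrophosphorylase, did not pass. SBE2.2 stood at 1.97, 1.89 and 1.79 at 9 h and 1.67, 1.44 and 1.89 at 2 h, APL3 at -1.51, -1.49 and -1.56 and -1.37, -1.32 and -1.43, and APL4, the dimmest, at -2.57, -2.54 and -2.44 and -2.52, -2.42 and -2.55.

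Among 5 named genes of sugar starvation, isovaleryl-CoA dehydrogenase (IVD), an enzyme of leucine breakdown that feeds respiration when carbohydrate is short, rose by 0.89 ± 0.17 (adjusted p = 0.000765), with 1.81, 1.93 and 2.11 at 9 h and 1.13, 0.93 and 1.13 at 2 h. MCCA and MCCB, the subunits of the next enzyme of that pathway, had changes of 0.72 and 0.69 that did not pass (adjusted p = 0.205 and 0.0527). With the replicate block 3 of the 5 genes rose. Of 17 SWEET and tonoplast sugar transporters 2 rose and 1 fell, against 3.4% and 3.52% of all named genes. SWEET2, a vacuolar member of the SWEET family, stood at 2.93, 2.66 and 2.71 at 9 h and 0.94, 1.71 and 1.72 at 2 h and rose by 1.31 ± 0.14 (adjusted p = 2.66e-07). TMT1, a tonoplast monosaccharide transporter, fell by 0.91 (adjusted p = 0.0134, with the call lost without 2 h replicate 1 or 9 h replicate 2 and adjusted p up to 0.17). TMT3 rose by 0.43 (adjusted p = 0.0313, and 0.0708 with the replicate block), a call lost in 11 alternatives, among them the removal of any 1 array other than 9 h replicate 3.

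Among genes that build ribosomes 12 of 28 rose, and among genes of the ribosome itself 1 of 45 and 3 of 84 for its small and large subunit. In a list of 50 ribosome biogenesis genes, written after the values were seen, 28 could be named. Beside the 12 rises (3.4% of all named genes rose) there was no fall, 27 had a change above 0, and the median was 0.38 beside -0.002 over all named genes. The largest rise was that of AT3G13230, an RNA-binding KH-domain protein related to an assembly factor of the small subunit in yeast, at 4.04, 4.38 and 4.27 at 9 h and 3.35, 3.42 and 3.49 at 2 h. It rose by 0.81 ± 0.15 (adjusted p = 0.000535, limma). AT3G22660, of the EBP2 family, rose by 0.70, AT3G46210, an exosome subunit, by 0.65 and YAO, a nucleolar WD40 protein, by 0.63. AT3G25940, a TFIIB-type zinc-binding protein, rose by 0.62 and AT3G05060, of the NOP56 and NOP58 family of snoRNA-bound proteins, by 0.59. Adjusted p for these 6 was at most 0.0243 (limma).

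The count of 12 was sensitive to single arrays: without 1 array it was 5 to 9, lowest without 9 h replicate 3 and 7 without 2 h replicate 1. Without all arrays of replicate 2 or of replicate 3 in the series it was 3, and with the replicate block it was 14. No member fell in any of these. AT3G22660 lost its call without 2 h replicate 1 or 9 h replicate 2, AT3G05060 without 9 h replicate 3, and YAO without replicates 1 or 3 of either time (adjusted p up to 0.214, 0.272 and 0.232 over the alternatives). Of 45 small-subunit ribosomal proteins that could be named 1 rose, 2 with the replicate block, and none fell (median 0.07), and of 84 large-subunit ones 3 rose and none fell (median 0.06). Both counts of rises lie near the share of all named genes that rose, 3.4%, so they set neither list apart. AT5G39850, a form of protein S9, rose by 0.72 ± 0.15 (adjusted p = 0.00226), at 3.05, 3.09 and 3.14 at 9 h and 2.28, 2.30 and 2.55 at 2 h. The large-subunit rises were AT5G40040 (0.52), a P2-type stalk protein, AT1G80750 (0.49), of the L7 type, and AT3G09630 (0.34), of the L4 type, whose adjusted p was 0.0397, and 0.0638 with the replicate block. AT3G09630 lost its call in 13 of the 16 alternatives, and AT5G40040 without 9 h replicate 2. Without all arrays of replicate 3 in the series, 0 of the large-subunit list passed, and without 9 h replicate 2, 1 did. Both ribosomal protein lists were also written after the values were seen.

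Of 17 cell wall loosening genes 1 rose and 2 fell, against 3.4% and 3.52% of all named genes, with a median of -0.05. EXPA8, an expansin, stood at 3.92, 3.33 and 3.58 at 9 h and 2.25, 1.91 and 1.16 at 2 h and rose by 1.83 ± 0.25 (adjusted p = 1.19e-05, limma). EXLA1, an expansin-like protein, stood at -0.23, -0.47 and 0.30 at 9 h and 1.82, 2.06 and 1.30 at 2 h and fell by 1.86 ± 0.25 (adjusted p = 1.05e-05). XTH16, a xyloglucan endotransglucosylase, fell by 1.09 ± 0.20 (adjusted p = 0.000437). The other 14 lay between -0.45 and 0.37 and did not pass. Of 4 auxin response genes 2 rose: WES1, an auxin-conjugating GH3 enzyme, by 0.90 and IAA29, a repressor of auxin response, by 0.58 (adjusted p = 0.0218 and 0.0124). The WES1 call was kept without 2 h replicate 2 but in no other single removal. Neither auxin call was kept without 9 h replicate 1 or without 2 h replicate 3, where adjusted p of WES1 was 0.0694 and 0.0972 and that of IAA29 was 0.11 and 0.0936.

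The falls in the next 3 lists are read against 3.52% of all named genes. Of 7 tubulin genes 4 fell and none rose, with a median of -0.50: TUB9 by 0.61, TUB5 by 0.58, TUA6 by 0.55 and TUB7 by 0.50 (adjusted p at most 0.00611, limma). Of 11 named mitosis and cytokinesis genes 4 fell and none rose. They were AUR2 and AUR1, Aurora kinases of the mitotic spindle, AT5G15510, a TPX2-type microtubule protein, and 3xHMG-box2, a protein that binds mitotic chromosomes. AUR2 stood at -1.09, -0.90 and -0.88 at 9 h and -0.29, -0.19 and -0.14 at 2 h and fell by 0.75 ± 0.16 (adjusted p = 0.00267), and AUR1 fell by 0.60 ± 0.12 (adjusted p = 0.0014). Of 5 genes of the plastid chaperonin and of plastid division 4 fell: Cpn60beta4 by 1.40 and Cpn60beta2 by 0.77, which help plastid proteins fold, and FTSZ2-2 by 0.76 and FTSZ2-1 by 0.49, which form the division ring. Cpn60beta4 stood at 0.08, -0.05 and 0.32 at 9 h and 1.63, 1.59 and 1.33 at 2 h. These lists of tubulin, mitosis and plastid genes were made after the values were seen. Without all arrays of replicate 3 in the series, 1 of the tubulins passed. Single arrays also mattered: TUB5 did not pass without 9 h replicate 1 (adjusted p = 0.0525), TUB7 without 2 h replicate 3 (0.072) and FTSZ2-1 without 2 h replicate 2 (0.0625).

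Stress genes were split as well. Of 4 cold and dehydration genes 3 fell and none rose, against 3.52% of all named genes that fell, with a median of -0.79. COR15A, a chloroplast protein that protects membranes in the cold, stood at -2.22, -2.08 and -1.75 at 9 h and -0.57, -0.29 and -0.89 at 2 h and fell by 1.43 ± 0.21 (adjusted p = 3.42e-05, limma). Its relative COR15B fell by 0.69 ± 0.16 (adjusted p = 0.00645) and STZ, a zinc-finger repressor, by 0.89 ± 0.27 (adjusted p = 0.0366). The STZ call was lost when any 1 of the 6 arrays was left out, with adjusted p up to 0.271. COR47 (-0.42) did not pass.

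Of 17 named core hypoxia genes, a set known to be induced when oxygen is short, 3 rose and 5 fell in air, with a median of -0.42. Of all named genes 3.4% rose and 3.52% fell. PDC2, a pyruvate decarboxylase of ethanol fermentation, stood at -0.27, -0.07 and -0.04 at 9 h and 1.93, 1.85 and 2.02 at 2 h and fell by 2.06 ± 0.12 (adjusted p = 2.33e-12, limma). AT3G23170 fell by 1.04, AT4G33560 by 0.95, the lactate dehydrogenase LDH by 0.65 and AT4G10270 by 0.57. AT4G27450, at 3.28, 3.75 and 3.49 at 9 h and 2.31, 2.20 and 2.12 at 2 h, rose by 1.30 ± 0.12 (adjusted p = 9.38e-09), AT1G19530 by 0.84 and AT1G33055 by 0.76. Without 1 array 2 or 3 of the list rose and 3 to 6 fell, with 3 falls without 9 h replicate 1, 2 h replicate 2 or 2 h replicate 3, and AT1G19530 did not pass without 9 h replicate 2 or 2 h replicate 3. With the replicate block 9 fell.

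Of 6 small heat shock genes AT5G51440, which encodes a mitochondrial form, passed, at -0.06, 1.23 and 1.64 at 9 h and -0.60, -0.19 and -0.87 at 2 h. Its rise of 1.49 ± 0.45 had an adjusted p of 0.036 and was lost when 2 h replicate 1 or 3 or 9 h replicate 2 or 3 was left out (adjusted p up to 0.522). With the replicate block 1 other member fell. Of 9 ATG8 genes, whose proteins coat the membranes of autophagy, 3 rose, against 3.4% of all named genes: ATG8B by 0.81, ATG8F by 0.49 and APG8A by 0.48 (adjusted p at most 0.00654, limma). ATG8D fell by 0.39 with an adjusted p of 0.05, at the threshold, and was not called when any 1 array was left out. In larger families the falls, read against 3.52% of all named genes, were these: 4 of 47 UDP-glycosyltransferases fell, led by UGT80B1 (-1.08), 3 of 29 serine carboxypeptidase-like genes fell, led by SCPL49 (-1.19) and SCPL34 (-1.01), 2 of 20 beta-glucosidases fell, BGLU44 (-1.06) and BGLU42 (-0.78), and 1 of 24 cytochrome P450 genes fell, CYP71B22 (-0.56). None rose in these 4 families, but with the replicate block 1 UDP-glycosyltransferase and 1 beta-glucosidase rose and 5 UDP-glycosyltransferases fell. Without 9 h replicate 2, 1 beta-glucosidase rose, without 9 h replicate 1, 1 cytochrome P450 gene rose, and without all arrays of replicate 2 in the series, 1 UDP-glycosyltransferase rose. BGLU42 lost its call without 2 h replicate 2, and CYP71B22 without 9 h replicate 1 or without replicate 2 of either time (adjusted p up to 0.161 and 0.416 over the alternatives). The ATG8, UDP-glycosyltransferase, carboxypeptidase and beta-glucosidase lists were also made after the values were seen.

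None of the 69 plastid-encoded and 16 mitochondrion-encoded genes passed, with changes from -0.89 to 0.74 and from -0.23 to 0.40 and medians of -0.10 and -0.08. With the replicate block, 7 plastid-encoded genes fell and 2 rose. Transcripts of organelles are not bound by the tagged cytosolic ribosome and mostly lack long poly(A) tails, and the labels give polyA RNA as the molecule. Histone (5 genes), phenylpropanoid and flavonoid (4) and glucosinolate (2) genes did not pass, with medians of -0.16, -0.30 and 0.36. With the replicate block 1 histone gene rose, 1 histone gene fell and 1 gene of the phenylpropanoid and flavonoid list fell. Without 2 h replicate 1, 1 histone gene rose and 2 genes of that phenylpropanoid list fell. No member of the lists for aquaporins and for nitrogen and sulfur assimilation could be named.

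**Figure D3:**
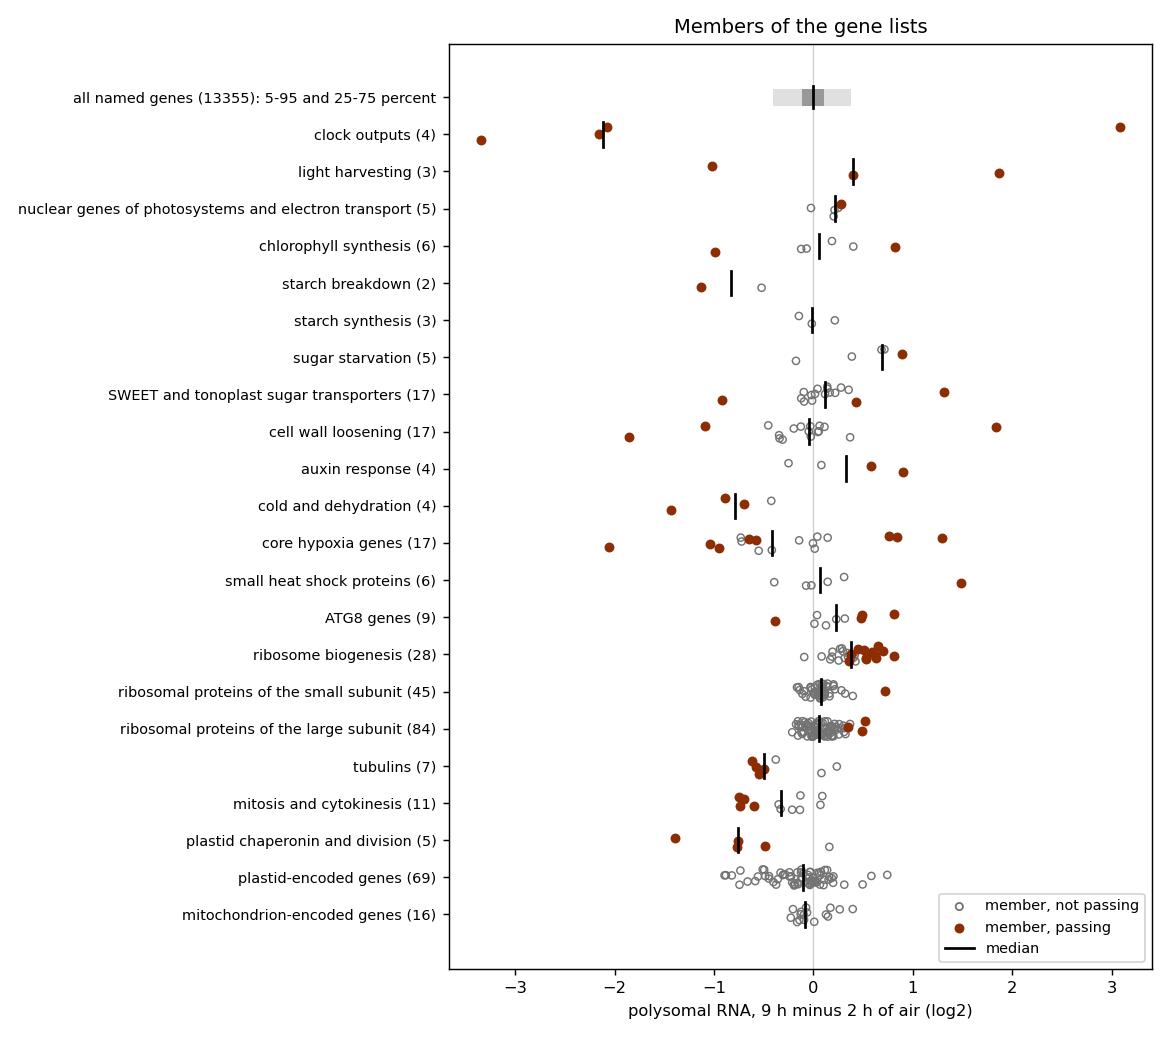
Change of each list member in polysomal RNA, 9 h minus 2 h of air, in log2 units, with the number of named members in brackets (filled circles passed the test, open circles did not, bars are medians). The top row shows all 13355 named genes as 5 to 95 and 25 to 75 percent bands; the ribosome biogenesis median of 0.38 lies above those of both ribosomal protein lists.

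The next comparison asked whether the polysomal change differed from the change in total RNA of the same seedlings' groups. In total RNA 681 probe sets rose and 902 fell, 6.96% of all, with 2.99% higher and 3.97% lower. Of the polysomal calls 57.8% were also called in total RNA and of the total calls 68.5% were called in polysomal RNA, 1085 probe sets in all, each in the same direction; 1840 of the 1878 polysomal calls had the same sign in total RNA and 38 had the opposite one. Across the 22746 probe sets, which are not independent, the changes in the 2 pools had a correlation of 0.825. All 24 genes of largest polysomal change also passed in total RNA. The change in polysomal RNA minus that in total RNA passed for 1 probe set (0.0044% of all; 971 had an unadjusted p under 0.05, which is 4.27%). For 1698 of the 1878 polysomal calls the 95% interval of that difference lay within 1 log2 unit on either side of 0, with a median half-width of 0.41. That bound is wider than the median polysomal change itself, 0.67 for the rises and -0.62 for the falls. Equal change in the 2 pools is therefore not shown for single genes.

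**Figure D4:**
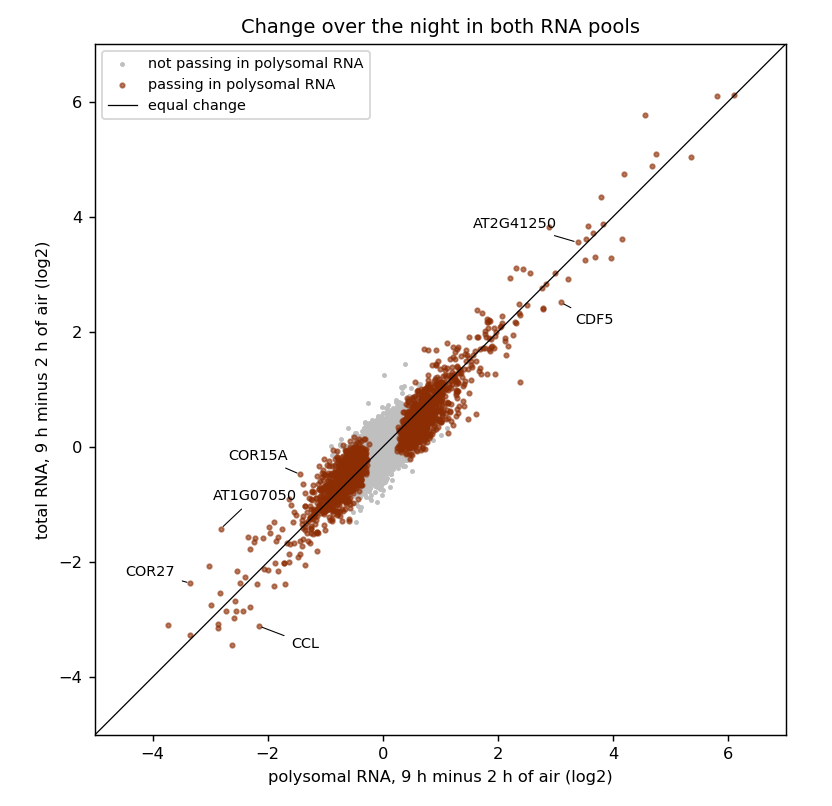
Change over the night in total RNA (vertical) against polysomal RNA (horizontal), 9 h minus 2 h of air in log2 units, for 22746 probe sets; coloured points passed the test in polysomal RNA and the line marks equal change. Most points follow the line, and AT1G07050 lies above it, with a fall of 2.82 in polysomal and 1.42 in total RNA.

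The probe set that passed was that of AT1G07050, the CCT-motif gene. It fell by 2.82 in polysomal RNA, against 1.42 in total RNA, where its level was -2.32, -2.28 and -2.38 at 9 h and -0.87, -1.08 and -0.76 at 2 h. Polysomal minus total level in the same-numbered arrays was 0.10, -0.07 and 0.17 at 9 h, against 1.76, 1.31 and 1.32 at 2 h, so the pools differed in level at 2 h. At 9 h the gene was dim in both pools, and a difference there could be too small to measure. The difference of the changes was -1.39 ± 0.21 (adjusted p = 0.0154, limma). The call was kept without polysomal 2 h replicate 2, polysomal 9 h replicate 3, total 2 h replicate 3 or total 9 h replicate 3 and lost without any 1 of the other 8 air arrays, with values of -1.23 to -1.56 and adjusted p of 0.00191 to 0.112 over the 12 removals. It was also lost with only the air arrays (adjusted p = 0.125) and without all arrays of any 1 replicate number (0.321 to 1), but kept with the replicate block (0.0448). CCL fell by 2.16 in polysomal and by 3.11 in total RNA, a difference of 0.95 with a 95% interval of 0.55 to 1.35 that did not pass (adjusted p = 0.351). AT3G62550 was alike, with falls of 2.61 and 3.44 (adjusted p of the difference = 0.53). COR15A and COR15B, called in polysomal RNA, had changes of -0.48 and 0.03 in total RNA that did not pass, and the differences did not pass either (adjusted p = 1 for both). In total RNA both were dim, at means of -2.28 and -1.91 at 9 h and -1.81 and -1.94 at 2 h. A change there could be too small to measure.

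The last comparison set the polysomal change over the same hours under hypoxia beside that in air. The difference between the changes subtracts the same air arrays that chose the genes above, so that choice favours a difference of the opposite sign to the air change, and for such genes the values below are a description. The comparison was added after the values were seen and rests on arrays of another overall level: the means before subtraction were 4.342 ± 0.011 after 9 h and 4.536 ± 0.010 after 2 h of hypoxia (SD, n = 3 each), below those in air. The part of that level gap in the differences below was not tested. The 9 h minus 2 h change under hypoxia differed from that in air for 4715 probe sets, 20.7% of all, 2078 of them higher (9.14%) and 2637 lower (11.6%). Leaving out all arrays of replicate 2 gave 2663 calls and of replicate 3 gave 2647. That split depended on the scaling, with 1100 higher and 4359 lower without subtraction, where the median over all probe sets was -0.13, and 2717 and 2285 with array medians subtracted, where it was 0.12. Of the air calls 1228 (65.4%) had the same sign under hypoxia and 650 the opposite one. The median change of the air rises was 0.15 under hypoxia and 0.67 in air, and that of the air falls -0.32 under hypoxia and -0.62 in air, beside 0.06 for all probe sets under hypoxia.

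Of the 24 genes of largest change in air, 20 had the same sign under hypoxia and 4 the opposite one. COR27 had -0.33, -0.03 and 0.26 after 9 h and 0.29, 0.63 and 0.86 after 2 h of hypoxia, a change of -0.63, and differed from air by 2.71 ± 0.24 (adjusted p = 2.23e-08, limma). COR28 had 1.80, 2.09 and 2.44 and 2.14, 1.70 and 2.12, overlapping groups that lay above the 2 h air level, with a difference from air of 2.20 ± 0.33 (adjusted p = 2.45e-05). CDF5 had a change of 1.41 under hypoxia, less than in air by 1.68 ± 0.28 (adjusted p = 7.45e-05).

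AT4G16146 stood at 3.03, 3.30 and 3.13 after 9 h and 3.66, 3.22 and 3.76 after 2 h of hypoxia. Relative to the array mean this was close to its 2 h air level at both times. Its signal before that subtraction was lower under hypoxia, where the array means were 4.342 (9 h) and 4.536 (2 h), against 5.364 at 2 h of air. The change of AT4G16146 under hypoxia differed from that in air by 3.33 ± 0.23 (adjusted p = 4.49e-10, limma). LHCB4.2 had a change of -0.06 under hypoxia beside 1.87 in air (adjusted p of the difference = 1.22e-06). AT1G55960, AT1G66100, AT1G64500 and AT3G16800 had changes of 1.91, 2.01, 1.34 and 2.39 under hypoxia, and their differences from air did not pass. PDC2, which fell in air, had a change of 1.04 under hypoxia (difference 3.09 ± 0.17, adjusted p = 1.29e-11). The median change of the 28 ribosome biogenesis genes was -0.35 under hypoxia and 0.38 in air. The ribosomal protein lists had lower medians under hypoxia, -0.655 for the small subunit (0.074 in air) and -0.498 for the large subunit (0.055 in air). Neither RVE6 nor GI passed in air; RVE6 had a change of 1.40 under hypoxia, which differed from air (adjusted p = 0.00316), and GI of -0.11, which did not (adjusted p = 0.0664).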

How the data were processed

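The samples were 30 one-colour Affymetrix arrays, and analysed here were mainly the 6 of polysomal RNA in air, with 6 of total RNA in air and 6 of polysomal RNA under hypoxia beside them. The deposited values are RMA signals on the log2 scale, as the authors' processing notes and the values themselves show. No source used here gives the release of RMA or the set of arrays it was run on. Tested were 22746 probe sets, without 64 controls. Each array's mean was subtracted, and limma (version 3.58.1, R 4.3.3) was fitted to all 30 arrays with 10 group means and 20 residual degrees of freedom; adjusted p is Benjamini-Hochberg over all probe sets, with a threshold of 0.05 and no filter. The scripts were tested on simulated data.

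Names came from the probe table (13513 probe sets with 1 gene, 503 with several, 8730 with none), matched to the RefSeq table for TAIR10.1, with the probe set of highest mean over all arrays for each of 13355 genes. Where the tables give a locus without a name, the role, and the names COR28, CDF5 and RVE6, come from general knowledge of these loci. Named were the 12 largest rises and falls among passing genes whose arrays did not overlap, all clock and starch genes of the lists, and up to 6 passing members of each other list. The members and lists were chosen with earlier results of these data known, and 14 lists were added after the values were seen. Promoter sequences were not used here.

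Same-numbered 9 h and 2 h arrays deviated together in polysomal RNA (correlations of 0.302, 0.28 and 0.111), in total RNA (0.344, 0.336 and 0.216) and under hypoxia (0.286, 0.157 and 0.175). This pairing is a hint from the data, since no label ties a number to a day or batch. The fit with the replicate number as a block used only the arrays of the groups compared. It is given where it changes the call of a named gene or the count of a list. The other alternatives were no centring, array medians, quantile normalization, removal of the dimmest 40 percent of probe sets, smaller fits, and leaving out arrays. The number of arrays limits the precision.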

Additional observations from a re-analysis of the deposited data

Results flagged for a closer look

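The values here are differences between changes that passed limma's test of the difference itself. Only the 24 genes of largest change and the named clock and starch genes were considered. Other named genes whose change under hypoxia differed from that in air are not listed here. The change of AT1G07050 in polysomal RNA minus that in total RNA was -1.39. The other values are the change from 2 h to 9 h in polysomal RNA under hypoxia minus that in air, a comparison added after the values were seen and made between arrays of unlike overall level. Genes that were named for their change in air were chosen on the air arrays that this difference subtracts, which favours the opposite sign, so for them the values are a description. Among genes that rose in air it was -0.996 for AFR, -1.62 for AT2G41250, -1.46 for AT3G21670, -1.03 for AT5G22390, -1.67 for AT5G48490, -1.68 for CDF5, -1.93 for LHCB4.2 and -1.87 for SIS. Among genes that fell in air it was 0.961 for AT1G07050, 3.14 for AT1G56300, 2.45 for AT2G15830, 1.60 for AT3G62550, 3.33 for AT4G16146, 1.66 for AT4G30650, 1.54 for AT4G30660, 1.48 for AT4G34950, 1.10 for AT5G62360, 1.61 for CCL, 2.71 for COR27, 2.20 for COR28 and 0.83 for DPE1. Of genes that did not pass in air it was -0.405 for APL3, 1.29 for RVE6 and -0.494 for SBE2.2. The part of the array level in these differences was not tested.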

How the results depend on the processing

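The rises and falls called in polysomal RNA numbered 680 to 1174 and 741 to 1329 over the alternatives that kept all 6 arrays, the highest with the replicate block. Leaving out arrays gave 415 to 778 rises and 477 to 796 falls in polysomal RNA, 325 to 645 rises and 414 to 721 falls in total RNA, 0 to 1 calls for the polysomal minus total change and 2647 to 4665 calls for the change under hypoxia minus that in air. The 1 call of the polysomal minus total change was absent (0 calls) with only the groups compared and with only the air arrays, and without the dimmest 40 percent of probe sets, a setting that drops that probe set. Of 93 named genes 87 passed, and 50 of these passed in every alternative that tested them (83 of the 93 were tested without the dimmest probe sets), among them the 24 of largest change; the cause of the losses was not tested, but removals leave fewer arrays. Leaving out arrays gave APL4 differences of -0.080 to 0.033, above 0 without 9 h replicate 1 (0.010), 2 h replicate 2 (0.021) or all arrays of replicate 2 in the series. RVE6 differences were -0.235 to 0.406, below 0 without 2 h replicate 1 (-0.012), 9 h replicate 1 (-0.114) or all arrays of replicate 1 in the series. The replicate block, fitted to the groups compared only, lost the calls of AT3G09630, PSAN, SBPASE and TMT3 and gained that of GI. Each of these lost calls was also lost in the fit to those groups without the block. The replicate block raised the total RNA calls to 1000 and 1322, gave 1 call for the polysomal minus total change and 4396 for hypoxia minus air, and changed no other call among the named genes. Each of the 93 named genes had only 1 probe set, so the choice of probe set could not alter them. Dim probe sets and 3 arrays a group limit what small changes can be seen.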
